A study of Mus musculus with 9 samples.

Results

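Collagen chain genes were examined in the lungs of mice that had or had not been irradiated. A gene was included by its name, and the set holds every mouse gene whose symbol is Col, a number, the letter a and a number. Of 44 such genes in the reference gene table, 42 were found on the arrays, among 19751 gene symbols in all. They were represented by 61 probes, and each gene is described by its brightest probe. Col6a3 and Col12a1 were not matched to a probe and were not analysed here. The genes were grouped into 11 fibrillar chains, 8 basement-membrane chains and 23 other chains.

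Total RNA came from lungs of male C57BL/6 mice. The labels give an age of 10 weeks for every sample and do not say whether that is the age at irradiation or when the lung was taken. The 4 control arrays carried RNA from unirradiated mice, and the 5 irradiated arrays carried RNA from mice whose left lung had received 1 dose of radiation. The labels name zoletil and rompun as the anaesthetics given during irradiation. They give no dose, no region and no time after irradiation for any array, and the study used more than 1 of each, so the irradiated arrays may differ in all of them. RNA was pooled before labelling, so an array is a pool and not a single animal. The labels do not say that the pools came from separate experiments, so every p-value here measures the spread between arrays, which may in part be technical.

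Collagens are proteins wound from 3 polypeptide chains into a triple helix, and each chain has a gene of its own. Fibrillar collagens, chiefly types I and III, form the tensile fibres of the lung interstitium and are the main component of scar tissue. Type IV chains form the sheet-like network of basement membranes, which in the alveolar wall lies between epithelium and capillary. The remaining chains link fibrils, form microfibrils, span cell membranes or belong to specialised tissues such as cartilage.

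The genes for the type IV chains lie in head-to-head pairs, and Col4a1 and Col4a2 are read in opposite directions from adjoining starts. Their promoters are shown because the levels of both genes moved together across the arrays described below. Levels of Col4a3, from another pair, moved the same way on every array but control 3. The sequences are from RefSeq, build GRCm38.p6, and run from 250 bases before to 50 bases after each annotated start, 5′ to 3′. The Col4a1 window is chr8:11312777-11313076 on the minus strand, and the Col4a2 window is chr8:11312555-11312854 on the plus strand. Capitals mark the 78 bases, from 11312777 to 11312854, that lie in both windows, where each sequence is the reverse complement of the other.
Col4a1: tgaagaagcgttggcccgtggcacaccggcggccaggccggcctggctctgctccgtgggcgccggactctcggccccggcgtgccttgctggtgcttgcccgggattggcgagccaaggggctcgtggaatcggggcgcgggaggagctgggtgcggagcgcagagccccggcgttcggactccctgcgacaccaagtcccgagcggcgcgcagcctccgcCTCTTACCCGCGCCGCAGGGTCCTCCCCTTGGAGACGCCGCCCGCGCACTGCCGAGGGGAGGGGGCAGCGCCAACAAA
Col4a2: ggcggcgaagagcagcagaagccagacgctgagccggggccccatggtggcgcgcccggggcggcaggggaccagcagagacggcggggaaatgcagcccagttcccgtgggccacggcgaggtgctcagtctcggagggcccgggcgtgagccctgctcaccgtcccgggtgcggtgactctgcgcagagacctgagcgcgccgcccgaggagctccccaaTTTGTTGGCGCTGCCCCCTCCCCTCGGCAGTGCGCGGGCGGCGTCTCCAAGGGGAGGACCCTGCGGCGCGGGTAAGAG
Both windows were rich in G and C, at 74.0% for Col4a1 and 73.7% for Col4a2. The GC box motif GGGCGG, searched on both strands with overlapping matches counted, occurred 1 time in the Col4a1 window and 3 times in the Col4a2 window, and the Col4a1 match lies in the shared bases, so that it is also 1 of the 3. That motif was held by 35.7% of all 32851 windows of this length. The CCAAT motif occurred 1 time in each window, in neither case wholly inside the shared bases, and was held by 37.4% of all windows. The TATAAA motif was in neither window and was held by 13.6% of all windows. Of the 42 measured collagen genes, 34 had a window in the table, and GGGCGG was present for 22 of them (64.7%), beside 38.2% of all 27025 genes in the table.

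No collagen gene passed an adjusted p of 0.05 in limma, in either direction, when the irradiated arrays were compared with the control arrays. Among all 19698 genes tested the share called was 0.264% for higher and 0.152% for lower levels. At an unadjusted p under 0.05, 9 collagen genes (21.4%) were higher in irradiated lung and 0 were lower, beside 7.37% and 4.98% of all genes. In 27 of the 42 the difference, irradiated minus control on the log2 scale, was above 0 (64.3%), beside 51.9% of all genes. The median difference was 0.17, beside 0.0085 for all genes. Taken by array, as the median distance from each gene's control mean, the groups overlapped. It was 0.218, 0.053, -0.190 and 0.016 on control arrays 1 to 4. On irradiated arrays 1 to 5 it was 0.300, 0.207, 0.041, 0.0255 and 0.167, so control 1 lay above all of these but irradiated 1.

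No test was made between the classes. The median difference was 0.25 for the 11 fibrillar chains and 0.21 for the 8 basement-membrane chains, and 0.011 for the 23 others. With only the 34 chains whose signal exceeded 1.4-fold local background on all 9 arrays, the medians were 0.27, 0.21 and 0.17. Above 0 lay 8 of the fibrillar, 6 of the basement-membrane and 13 of the other chains. Medians by array, again from the control means, overlapped in each class. For the fibrillar chains they were -0.54 to 0.38 on control and 0.08 to 0.54 on irradiated arrays. For the basement-membrane chains they were -0.11 to 0.24 and 0.11 to 0.38, and for the others -0.18 to 0.10 and -0.21 to 0.17. The 30 chains that were well above background on all 9 arrays ranged from -0.35 to 0.69, and all differences beyond that range belonged to dim probes. With irradiated 1 and control 3 both left out, the median over the 42 chains was 0.05, and with control 3 alone left out it was 0.10. Single genes depended more on single arrays. With any 1 array left out 31 of the 42 differences kept their sign, and 7 of them, those of Col4a6, Col24a1, Col27a1, Col5a2, Col22a1, Col8a1 and Col6a5, also stayed within 1.5 times their value.

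**Figure D1:**
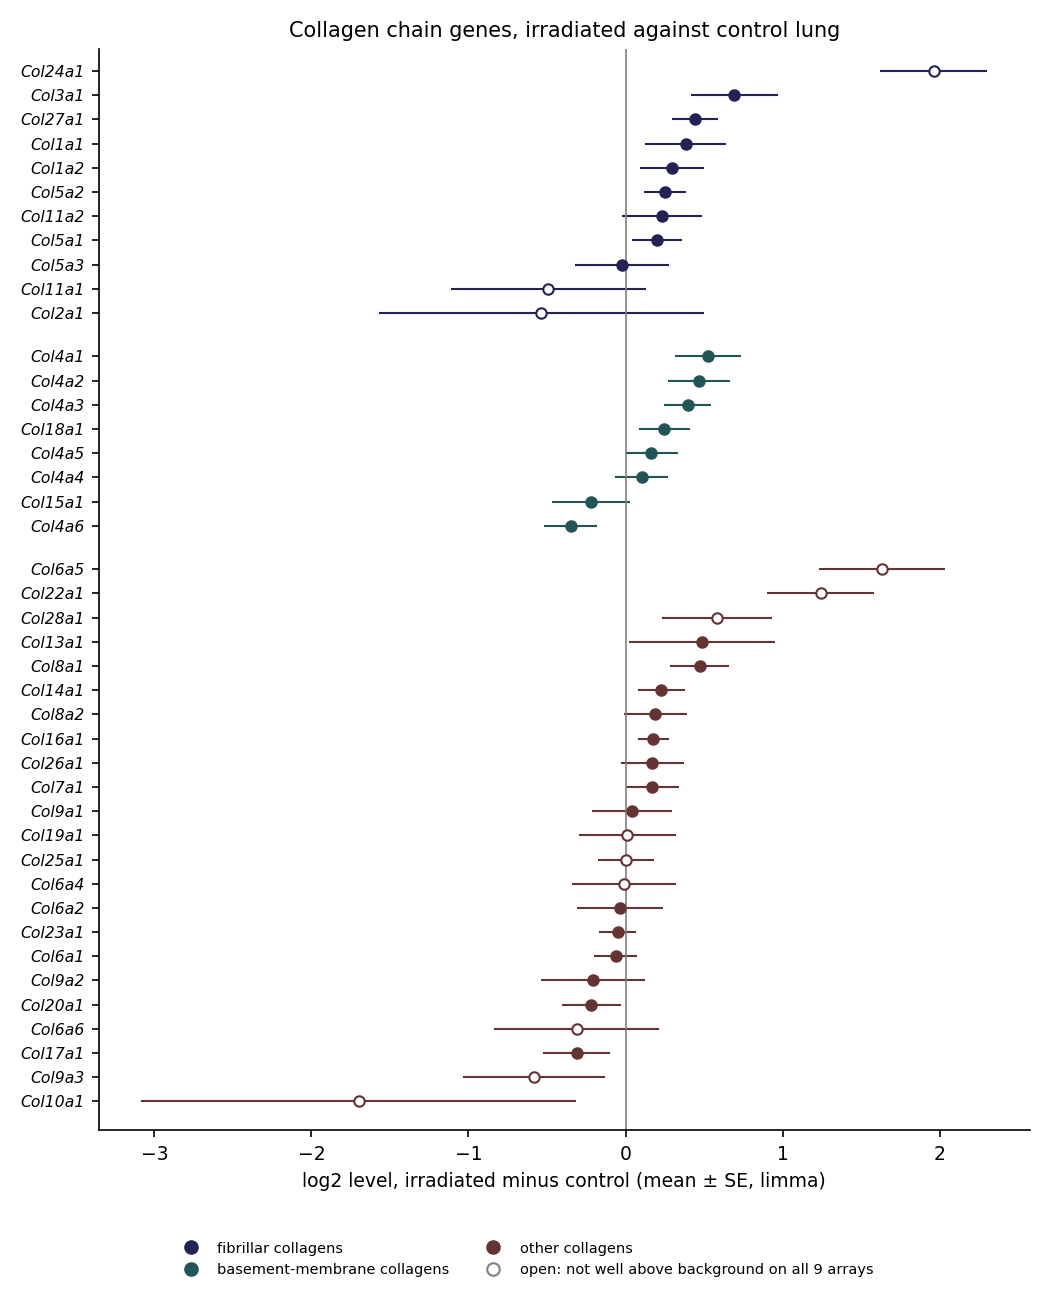
Difference in log2 normalized signal between irradiated and control arrays for each of the 42 collagen chain genes, as the mean with its limma standard error (4 control and 5 irradiated arrays), grouped by class. Open points mark the 12 genes that were not well above background on all 9 arrays. The 30 filled points lie between -0.35 and 0.69.

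Some arrays resembled each other for reasons other than group. Control 1 and irradiated 2, control 2 and irradiated 3, control 3 and irradiated 4, and control 4 and irradiated 5 matched in the position of the first spot row on the scan image and in local background, and are called image pairs here. The files do not say what the arrays of a pair shared, and irradiated 1 had no partner. Within the 4 pairs, 11 collagen genes (26.2%) were higher on the irradiated array every time and 1 was lower every time, beside 17.9% and 17.3% of all genes. With the image pair as a fixed block, limma called Col18a1 higher and Col4a6 lower, beside 2.28% and 1.56% of all genes called. With the pair as a random block, which also uses irradiated 1, 6 chains were called higher and 1 lower, beside 5.65% and 3.8% of all genes. The 6 were Col4a1, Col4a2, Col22a1, Col24a1, Col27a1 and Col6a5, and the 1 was Col4a6.

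Type I collagen, the main fibre-forming collagen, is built from the products of Col1a1 and Col1a2. The log2 level of Col1a1 was 14.44, 14.22, 13.35 and 13.80 on control arrays 1 to 4, and 14.68, 14.84, 14.30, 13.97 and 13.89 on irradiated arrays 1 to 5. For Col1a2 the control values were 16.31, 15.96, 15.51 and 15.93 and the irradiated values 16.18, 16.85, 15.88, 16.07 and 16.14. Both genes were highest on irradiated 2 and lowest on control 3, and the groups overlapped. The difference was 0.38 ± 0.26 (SE) for Col1a1 and 0.30 ± 0.21 for Col1a2, with adjusted p-values of 0.718 and 0.727. Within the image pairs Col1a1 was higher on the irradiated array in all 4, by 0.40, 0.07, 0.62 and 0.09, and Col1a2 in 3 of 4. The differences were 0.18 and 0.16 without control 3, 0.26 and 0.14 without irradiated 2, and 0.09 and 0.17 with irradiated 1 and control 3 both left out.

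Col3a1 encodes the type III chain, which forms fine fibres together with type I collagen in lung and vessel walls. Its levels were 14.70, 14.76, 13.60 and 14.11 on the control arrays and 15.28, 15.56, 14.86, 14.64 and 14.59 on the irradiated arrays. Irradiated 1, 2 and 3 lay above every control array, irradiated 4 and 5 lay just below control 1 and 2, and control 3 was lowest. The difference of 0.69 ± 0.28, a 1.62-fold higher level, was the largest among the chains well above background on all arrays, at an unadjusted p of 0.0305 and an adjusted p of 0.409. Within the image pairs it was 0.86, 0.11, 1.03 and 0.48. It was 0.46 without control 3, 0.39 with irradiated 1 and control 3 both left out and 0.85 with control 2 left out. Control 3, the lowest array for Col1a1, Col1a2 and Col3a1, stood apart in its skeletal muscle markers, which summed to 168822 there against 4689 to 6204 on the other controls and 3501 to 5228 on irradiated arrays. It also had the highest sum of basal epithelium markers, 19556 beside 12008 to 17418 on the other controls, and the part of either in these values was not tested.

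Type V chains start fibrils and set their diameter. Col5a1 stood at 11.06, 11.24, 10.67 and 10.92 on control arrays and at 11.43, 11.45, 11.06, 10.83 and 11.11 on irradiated arrays. Col5a2 stood at 9.16, 9.39, 9.27 and 9.47 and 9.86, 9.44, 9.32, 9.57 and 9.67. Irradiated 1 was the highest array for Col5a2 and came just after irradiated 2 for Col5a1, and the groups overlapped for both. The differences were 0.20 ± 0.16 for Col5a1 and 0.25 ± 0.13 for Col5a2, at adjusted p-values of 0.779 and 0.604. Col5a1 was at 0.10 without control 3, 0.13 without irradiated 2, 0.035 with irradiated 1 and control 3 both left out and 0.10 in the deposited table, and Col5a2 was at 0.16 with irradiated 1 and control 3 both left out. The third type V chain gene, Col5a3, differed by -0.021 ± 0.30, and this was -0.27 without control 3 and 0.25 without control 4.

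Col27a1, a fibrillar chain known mainly from cartilage, was higher on the irradiated array in all 4 image pairs. Control arrays read 8.18, 8.52, 8.20 and 8.28, and irradiated arrays read 9.09, 8.51, 8.75, 8.65 and 8.69. All irradiated arrays but irradiated 2 lay above every control array. Its difference was 0.44 ± 0.15 with an adjusted p of 0.311, and with the image pair as a random block it was 0.39 with an adjusted p of 0.0382. The within-pair differences were 0.32, 0.23, 0.45 and 0.41, and the deposited table gave 0.27.

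**Figure D2:**
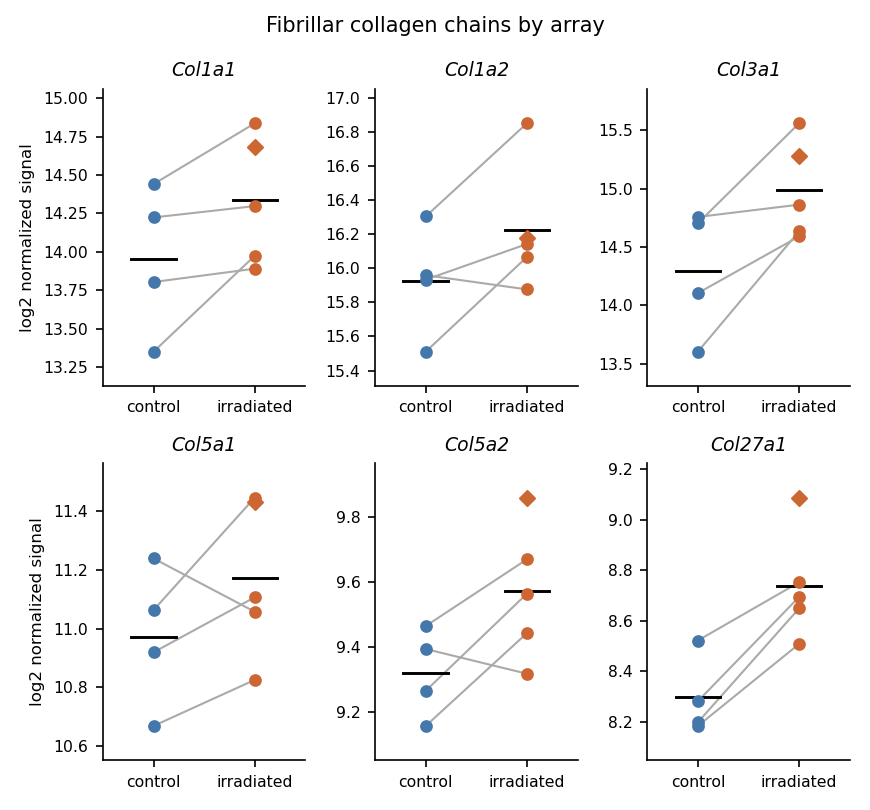
Log2 normalized signal of 6 fibrillar collagen chains on 4 control and 5 irradiated arrays. Points are arrays, black bars are group means, grey lines join the arrays of an image pair, and the diamond is irradiated 1, which had no partner. All 4 lines slope upward for Col27a1, and Col3a1 had the widest gap between group means, at 0.69.

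Markers of fibroblasts, the main source of fibrillar collagen, went both ways. Of 11 fibroblast markers, 5 had a higher and 6 a lower mean in irradiated lung. Every irradiated array lay below every control for 1 of them, Gli1 (-0.42 ± 0.13), beside 1.75% of all genes. For 0 did every one lie above, beside 3.39%. In all 4 image pairs 3 were lower and 0 higher, beside 17.3% and 17.9%. The summed signal of the 11 was 133469 to 151640 on control and 134679 to 177605 on irradiated arrays. Vim, at a control mean of 16.11 beside 14.48 for S100a4, the next brightest, weighs most in that sum. In RNA from lung tissue, fewer cells of a type and less RNA per cell cannot be told apart. The irradiated mean was above the control mean for 6 of 7 macrophage markers, with summed signals of 65232 to 82416 and 78718 to 89866, and below it for all 9 smooth muscle markers, with sums of 110655 to 149719 and 69561 to 120783. It was also below for all 6 adipose markers, with sums of 48555 to 146453 and 8845 to 93890, and for all 13 cardiac muscle markers, whose sum was 20366 on irradiated 1 but 226213 to 379682 on the other irradiated arrays, beside 218394 to 426615 on control arrays. The median difference of the cardiac markers was -1.06, and -0.18 with the image pair as a fixed block, which leaves irradiated 1 without a comparison.

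The 8 type I and 9 type II alveolar cell markers that were measured were all well above background on every array, as the lung label implies. All 8 type I markers had a higher irradiated mean, with a median difference of 0.25, and their sums did not overlap, at 320410 to 392507 on control and 398614 to 465697 on irradiated arrays. Type II markers went both ways, with 4 higher and 5 lower. Of 10 endothelium markers 7 had a lower irradiated mean, 5 of them lower in all 4 image pairs, and the sums were 344403 to 411132 and 295951 to 416956. All 5 basal epithelium markers had a lower irradiated mean, with sums of 12008 to 19556 and 8457 to 14786. Of these 5, 4 were highest on control 3, so their control means rest largely on that array. Of 6 mesothelium markers, 2 were higher and 4 lower. With the image pair as a block, more markers were called than the cartilage marker Chad, which was called without one. Counted with a fixed and with a random block, and read against 2.28% and 5.65% of all genes called higher and 1.56% and 3.8% called lower, these were 2 and 5 macrophage markers and 1 and 1 type I alveolar marker as higher. As lower they were 3 and 2 smooth muscle, 0 and 4 adipose, 1 and 2 fibroblast, 2 and 2 endothelium, 1 and 2 type II alveolar, 1 and 1 cardiac muscle and 0 and 1 basal epithelium markers. The part of any of these cell types in the collagen values was not tested.

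Among basement-membrane chains, Col4a1 and Col4a2 encode the partners that make up the network of nearly all basement membranes. Col4a1 levels were 13.85, 12.99, 13.33 and 13.96 on control arrays and 14.09, 14.43, 13.79, 13.84 and 14.13 on irradiated arrays. Col4a2 levels were 14.14, 13.27, 13.67 and 13.97 and 14.32, 14.72, 13.93, 14.08 and 14.11. For both genes control 2 was lowest, control 3 was next and irradiated 2 was highest. Irradiated 3 and 4 lay below the highest control for both, as did irradiated 5 for Col4a2.

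Measured from its own control mean, Col4a1 was at 0.32, -0.54, -0.20 and 0.42 on the 4 control arrays and at 0.56, 0.90, 0.26, 0.30 and 0.60 on the 5 irradiated arrays. The same figures for Col4a2 were 0.38, -0.49, -0.10 and 0.21 and 0.56, 0.95, 0.17, 0.31 and 0.35. The signs were the same for both genes on every array, including the controls. On irradiated arrays this follows in part from the higher irradiated mean of both. Col4a3, from another pair, also had these signs on every array but control 3, where it was at 0.04. Signs differed within the other pairs. Col4a3 and Col4a4 were at -0.47 and 0.28 on control 2, and Col4a5 and Col4a6 at 0.06 and -0.62 on irradiated 2. Moving together was thus not particular to Col4a1 and Col4a2. These are descriptions over 9 arrays that share image pairs, and the promoter sequences above show where the starts of Col4a1 and Col4a2 adjoin.

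The difference between groups was 0.52 ± 0.21 for Col4a1 and 0.47 ± 0.20 for Col4a2, at unadjusted p-values of 0.0305 and 0.0412 and adjusted p-values of 0.409 and 0.467. Within the 4 image pairs the difference was 0.58, 0.80, 0.50 and 0.17 for Col4a1 and 0.57, 0.66, 0.41 and 0.14 for Col4a2, so each pair had the irradiated array higher. With the image pair as a random block the adjusted p-values were 0.0368 and 0.0485, and with a fixed block they were 0.0763 and 0.0827. Leaving out control 2, the lowest array, brought the difference to 0.34 for Col4a1 and 0.31 for Col4a2.

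Col4a3, Col4a4 and Col4a5 encode the chains of the network found in alveolar and glomerular basement membranes. Col4a3 read 11.14, 10.44, 10.95 and 11.09 on control arrays and 11.53, 11.35, 11.12, 11.23 and 11.27 on irradiated arrays. Only irradiated 3 lay below the highest control, control 1, and the difference was 0.39 ± 0.15 with an adjusted p of 0.392. It was 0.24 without control 2 and 0.21 in the deposited table. Col4a4, its head-to-head partner, read 12.30, 12.34, 11.57 and 12.05 and 12.18, 12.38, 12.26, 11.85 and 12.15. Its groups overlapped throughout, its difference was 0.10 ± 0.17, and this turned to -0.06 without control 3. Col4a5 was between 11.85 and 12.10 on every array but irradiated 1, where it was 12.73, and its difference was 0.16 ± 0.17, or 0.0092 without irradiated 1. The summed type I alveolar markers were higher on every irradiated array than on any control array, and their part in the values of the alveolar chains was not tested.

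Col4a6, the head-to-head partner of Col4a5, had the opposite sign. Its levels were 10.90, 11.37, 11.06 and 11.38 on control arrays and 11.30, 10.56, 10.87, 10.61 and 10.81 on irradiated arrays. Irradiated 2 to 5 lay below every control array, and irradiated 1 lay among the higher controls. The difference was -0.35 ± 0.17 with an adjusted p of 0.547, and it was -0.21 in the deposited table. Within the image pairs it was -0.34, -0.50, -0.45 and -0.57, and the adjusted p was 0.0377 with the pair as a fixed block and 0.0399 with a random block. A dimmer probe for the same gene differed by -0.26 ± 0.18.

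Col18a1, whose product yields the fragment endostatin, read 12.55, 12.12, 12.33 and 12.33 on control arrays and 12.08, 12.87, 12.48, 12.69 and 12.78 on irradiated arrays. The pattern mirrored that of Col4a6, since irradiated 1 was the lowest array of all while 3 of the other irradiated arrays lay above every control. The difference was 0.25 ± 0.16 with an adjusted p of 0.707. Within the image pairs it was 0.32, 0.36, 0.36 and 0.45, and with the pair as a fixed block, which leaves irradiated 1 without a comparison, it was 0.37 ± 0.05 with an adjusted p of 0.0377. With a random block the adjusted p was 0.0851, and another probe differed by 0.38 ± 0.15. The related chain gene Col15a1 differed by -0.22 ± 0.25, with its dimmer probes at 0.53 and 0.68, so that the sign depended on the probe.

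**Figure D3:**
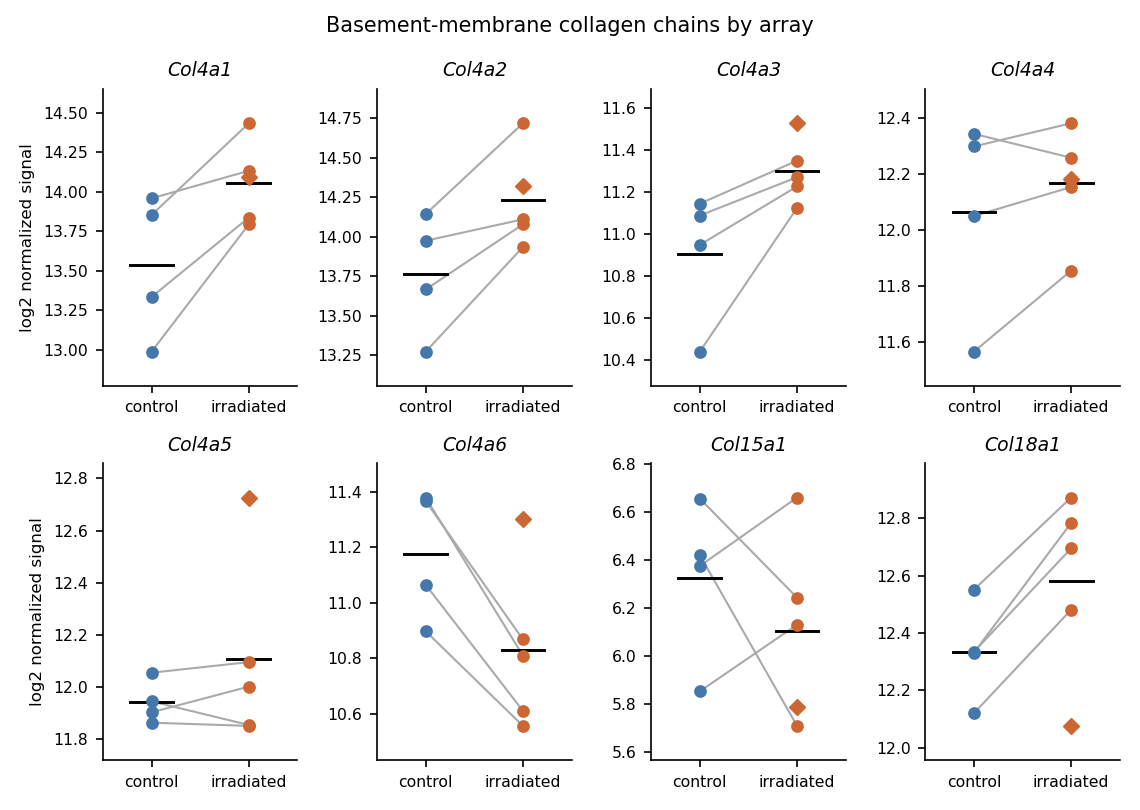
Log2 normalized signal of the 8 basement-membrane collagen chains on 4 control and 5 irradiated arrays. Points are arrays, black bars are group means, grey lines join the arrays of an image pair, and the diamond is irradiated 1. All 4 lines rise for Col4a1, Col4a2, Col4a3 and Col18a1 and fall for Col4a6, and irradiated 1 stands at 12.73 for Col4a5, above all other arrays.

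In 3 chains every irradiated array lay above every control array (7.14%), beside 3.39% of all genes, and in 0 chains did every irradiated array lie below, beside 1.75%. These were Col24a1, Col6a5 and Col22a1, and all 3 were dim. Col24a1, a fibrillar chain known from developing bone, read 3.59, 4.52, 2.94 and 2.88 on control and 5.12, 5.31, 5.43, 5.88 and 5.49 on irradiated arrays. It was well above background on 1 control and 4 irradiated arrays. The difference was 1.96 ± 0.34, with an unadjusted p of 0.000197 and an adjusted p of 0.0524, the lowest among the 42 chains. It passed the threshold without control 2 (adjusted p = 0.0457), without irradiated 1 (0.0390), with array weights (0.0293) and with the image pair as a random block (0.00485). These were 4 of the 20 alternatives that gave it a value. In the others the adjusted p was 0.0532 to 1.00, among them 0.0585 with a fixed block, 0.138 with normexp background correction, 0.138 with 75th percentile scaling and 1.00 in the deposited table, and the filter on all 9 arrays left the gene out.

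Col6a5 encodes one chain of type VI microfibrils. Its control values were 2.78, 2.25, 3.62 and 3.43 and its irradiated values 4.45, 4.36, 4.32, 4.27 and 5.86. Irradiated 5 stood apart above the other irradiated arrays, and the probe was well above background on 1 control and 2 irradiated arrays. The difference was 1.63 ± 0.40 with an adjusted p of 0.155, or 0.00958 with a random block. The gene's other probe, not well above background on any array, differed by 0.00 ± 0.24.

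Col22a1, a chain of tissue junctions such as that of muscle and tendon, read 4.93, 5.64, 5.22 and 4.01 on control and 5.74, 6.60, 6.63, 6.00 and 5.99 on irradiated arrays. It was well above background on 2 control and all 5 irradiated arrays, and the gap between the highest control and the lowest irradiated array was narrow. The difference was 1.24 ± 0.34 with an adjusted p of 0.205, or 0.0112 with a random block. The size of all 3 differences depended on the signal used. With the median spot signal and normexp background correction (offset 50) in place of the processed signal, they were 0.50 for Col24a1, 0.30 for Col6a5 and 0.46 for Col22a1. The skeletal muscle markers that set control 3 apart had a lower irradiated mean for 12 of 12. All 12 were highest on control 3, so their control means rest largely on that array. The part of these markers in the Col22a1 values was not tested.

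Type VI collagen forms beaded microfibrils around cells. Col6a1 read 14.90, 14.47, 14.66 and 14.68 on control and 14.84, 14.93, 14.44, 14.47 and 14.39 on irradiated arrays. Col6a2 read 12.28, 11.46, 11.48 and 11.88 and 12.23, 12.40, 11.39, 11.23 and 11.47. Within each group the levels of both genes spanned the other group's mean. The differences were -0.063 ± 0.14 and -0.035 ± 0.28, at adjusted p-values of 0.954 and 0.996, and 95% intervals were -0.37 to 0.24 and -0.65 to 0.58. Within the image pairs Col6a1 differed by 0.02, -0.02, -0.20 and -0.29 and Col6a2 by 0.12, -0.08, -0.25 and -0.42. Col6a4 and Col6a6 were not well above background on 9 and 8 of the 9 arrays.

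Col8a1, a short-chain collagen of vessel walls, had the largest difference among the other chains that were well above background on all arrays, except for Col13a1. Its control values were 8.08, 7.66, 7.79 and 7.92 and its irradiated values 8.73, 8.06, 8.50, 8.43 and 7.95. All irradiated arrays but irradiated 2 and 5 lay above every control, and the difference was 0.47 ± 0.19 at an adjusted p of 0.409. Within the image pairs it was -0.02, 0.84, 0.64 and 0.04, and in the deposited table the difference was 0.27. Its partner Col8a2 differed by 0.19 ± 0.20, or 0.033 without control 1 and 0.34 without control 2. Col13a1, a transmembrane chain, differed by 0.49 ± 0.46, with values from 6.43 to 8.11 on controls and from 6.86 to 8.67 on irradiated arrays, and with 1 array left out its difference was 0.24 (without control 3) to 0.79 (without control 1).

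Of the 8 measured chains that associate with fibrils, 5 were well above background on all 9 arrays, with differences from -0.22 to 0.23. Of the others, Col22a1 is given above, and Col9a3 and Col19a1 were not well above background on any array. Col14a1 differed by 0.23 ± 0.15, Col16a1 by 0.18 ± 0.10 and Col20a1 by -0.22 ± 0.19. The anchoring-fibril chain Col7a1 differed by 0.17 ± 0.17. Without 1 array Col20a1 was at -0.070 (control 2), Col7a1 at 0.025 (control 3) and Col17a1, given next, at -0.19 (irradiated 4). The transmembrane chains of epithelial attachment and other cells were at -0.31 ± 0.21 for Col17a1, -0.05 ± 0.12 for Col23a1 and 0.0026 ± 0.18 for Col25a1. Col26a1 differed by 0.17 ± 0.20, and the dim Col28a1 by 0.58 ± 0.35. None of the chains with a value in this paragraph passed an unadjusted p of 0.05.

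The cartilage collagens were set apart by 1 control array. Col2a1, the main collagen of cartilage, read 8.66, 3.27, 2.54 and 4.59 on control and 4.35, 4.52, 4.73, 3.62 and 3.92 on irradiated arrays. Col10a1, made by hypertrophic chondrocytes, read 9.58, 3.27, 2.57 and 1.88 and 1.96, 1.87, 4.06, 3.37 and 1.89. Control 1 was far above all other arrays for both genes, and neither was well above background on most other arrays. The differences of -0.54 ± 1.04 and -1.70 ± 1.39 became 0.79 and 0.05 without control 1.

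Of the 7 genes for types II, IX, X and XI, 5 were highest on control 1. Col9a2, a chain on the surface of cartilage fibrils, read 8.32, 6.86, 7.36 and 6.60 on control arrays and 7.31, 7.18, 6.95, 7.31 and 6.62 on irradiated arrays. Col11a1 and Col11a2 were also highest on control 1, Col11a1 without being well above background and Col11a2 at 6.99 beside 6.90 on irradiated 2. The differences were -0.21 ± 0.33 for Col9a2, -0.49 ± 0.62 for Col11a1 and 0.23 ± 0.25 for Col11a2, and without control 1 they were 0.13, -0.038 and 0.41. Col9a1 and Col9a3 differed by 0.04 ± 0.25 and -0.58 ± 0.45. Col9a3, Col11a1, Col19a1 and Col6a4 were not well above background on any array, so their differences, 0.011 for Col19a1 and -0.0089 for Col6a4, have no order.

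Cartilage markers moved with these chains on control 1. Of 12 markers, 7 were highest there, among them Ucma at 9.12 beside 2.13 to 4.12 on the other arrays and Snorc at 8.39 beside 4.74 to 6.40. Matn1 and Cnmd, also among the 7, were not well above background on any array. The summed signal of the 12 was 5622 to 9228 on control and 5312 to 7242 on irradiated arrays. That sum was highest on control 2, not on control 1. Matn4 and Chad, the 2 brightest markers, weigh most in it, at 12.42 and 11.67 on control 2 and 11.32 and 11.53 on control 1. Chad, which encodes chondroadherin, was the one marker called, at a difference of -1.72 with an adjusted p of 0.0312, and it was lower on every irradiated array. The part of cartilage RNA in the cartilage collagen values was not tested. Without control 1 the number of chains whose groups did not overlap was 5 (11.9%) instead of 3, beside 4.97% of all genes under the same omission, and the median over the fibrillar chains was 0.41. With any 1 array left out that median ranged from 0.17 to 0.41, and the median over the basement-membrane chains from 0.18 to 0.25.

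**Figure D4:**
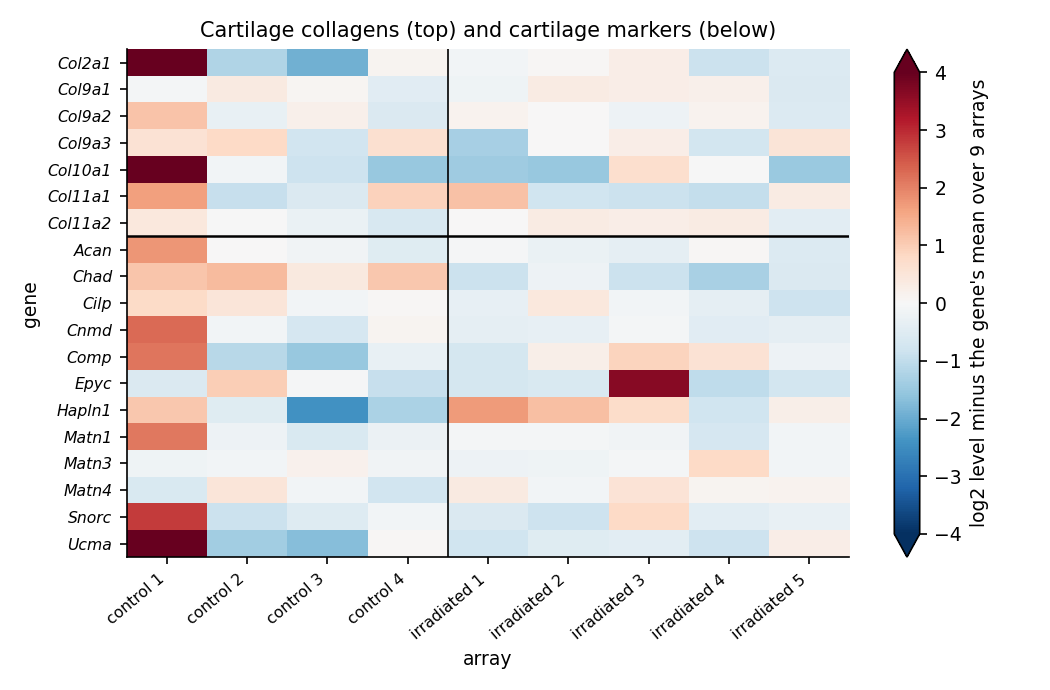
Log2 normalized signal of 7 cartilage collagen genes (above the line) and 12 cartilage markers (below it) on each of 9 arrays, as the difference from the gene's mean over the arrays. Colours end at -4 and 4. Control 1, the first column, has the highest value for 5 of the 7 collagens and 7 of the 12 markers.

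Genes that act on collagen after the chains are made were described from a list of 57, of which 55 were measured. The list covered enzymes that hydroxylate and glycosylate the chains, with partner proteins, and chaperones and export genes, with the transcription factor gene Creb3l1. It also covered proteinases that trim procollagen and their enhancers, cross-linking enzymes, fibril-associated proteoglycans, the matrix proteins Dpt and Sparc, and receptors. None was called by limma, beside 0.416% of all genes in either direction, and 10 were higher (18.2%) and 2 lower (3.64%) at an unadjusted p under 0.05, beside 7.37% and 4.98% of all genes. Differences were above 0 for 38 of 55 (69.1%), beside 51.9% of all genes, with a median of 0.15, beside 0.0085. In 21 of them (38.2%) the irradiated array was higher in all 4 image pairs and in 6 (10.9%) it was lower in all 4, beside 17.9% and 17.3% of all genes. With the image pair as a fixed block 2 were called higher and 0 lower, beside 2.28% and 1.56% of all genes, and with a random block 8 were called higher and 0 lower, beside 5.65% and 3.8%. In 4 (7.27%), Lox, P4ha1, Dpt and Itgb1, every irradiated array lay above every control array, beside 3.39% of all genes, and in 0 every one lay below, beside 1.75%.

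Cross-linking enzymes had the highest median of the 6 groups, 0.38 over 5 genes. Lox, which encodes lysyl oxidase, read 9.12, 8.98, 8.61 and 8.87 on control and 9.24, 9.70, 9.50, 9.66 and 9.52 on irradiated arrays. Every irradiated array lay above every control. The difference was 0.63 ± 0.14 with an adjusted p of 0.122, and with the image pair as a fixed block it was 0.70 with an adjusted p of 0.047. Loxl4 differed by 0.76 ± 0.25 with an adjusted p of 0.302, or 0.0486 with a random block. Loxl2 differed by 0.38 ± 0.15, and Loxl1 and Loxl3 by 0.12 and 0.11. Loxl1 was at -0.018 without control 2 and -0.022 without control 3, and Loxl3 at 0.027 without control 3.

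Among the enzymes and chaperones that prepare the chains, P4ha1, a prolyl hydroxylase subunit, was the one gene whose groups did not overlap. It read 10.69, 10.65, 10.37 and 10.61 on control and 10.90, 11.02, 10.82, 10.79 and 10.72 on irradiated arrays, a difference of 0.27 ± 0.10 with an adjusted p of 0.384, or 0.0482 with a random block. Serpinh1, the collagen chaperone HSP47, differed by 0.42 ± 0.21, with values of 13.93, 14.31, 13.35 and 13.75 and 14.30, 14.66, 14.45, 13.90 and 13.96. Its lowest array was control 3, as for Col1a1, Col1a2 and Col3a1, and without that array it differed by 0.26. Plod2, a lysyl hydroxylase, differed by 0.14 ± 0.34 and was higher in 1 of 4 image pairs. The irradiated mean was lower for 4 of the 15 genes for enzymes and their partner proteins, and higher for the rest. It was also lower for 3 of the 10 genes of the chaperone and export group. Among the lower were Creb3l1, which encodes a transcription factor, at -0.50 ± 0.20, P3h1 at -0.41 ± 0.22 and P4ha3 at -0.33 ± 0.23. Without irradiated 1 P4ha3 was at -0.21. Pcolce, which speeds the trimming of procollagen, differed by 0.30 ± 0.10 with an adjusted p of 0.317, or 0.033 with a random block. Of the 8 procollagen proteinases and enhancers measured, 3, with Pcolce the highest, had a higher irradiated mean. The other 5 had a lower one, and the median difference over the 8 was -0.055. Fkbp14, a prolyl isomerase that assists collagen folding, and P3h3, of the prolyl 3-hydroxylase family, were also called with a random block alone. They differed by 0.36 ± 0.12 and 0.24 ± 0.11, with adjusted p-values of 0.294 and 0.521 without a block and 0.0239 and 0.0432 with it.

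Dpt, which encodes the fibril-binding protein dermatopontin, and Itgb1, which encodes the integrin chain common to the collagen-binding integrins, also had groups that did not overlap. Dpt read 11.12, 10.73, 11.09 and 11.12 on control and 11.76, 11.67, 11.46, 11.40 and 11.70 on irradiated arrays. The difference was 0.58 ± 0.12, with an adjusted p of 0.0861, or 0.0452 with the image pair as a fixed block. Itgb1 read 12.74, 12.48, 12.66 and 12.76 and 13.06, 12.84, 12.81, 12.90 and 13.06, and differed by 0.27 ± 0.092 with an adjusted p of 0.308, or 0.0313 with a random block. Ddr2, a receptor tyrosine kinase activated by fibrillar collagen, differed by 0.30 ± 0.11. Of the 9 receptors measured, 6 had a higher and 3 a lower irradiated mean. The 3 were Gp6 at -0.55 ± 0.24 and Itga1 at -0.25 ± 0.14, each lower in all 4 image pairs, and Itga2 at -0.31 ± 0.22. Itga1 was at -0.16 without control 1, and Itga2 at -0.12 without control 3. Decorin (Dcn) and lumican (Lum), which coat fibrils, were at -0.49 ± 0.25 and -0.27 ± 0.29. They were the 2 with a lower irradiated mean among the 8 genes measured in the fibril-associated group. The other 6 had a higher one, and the median difference over the 8 was 0.13. Dpt and Sparc, which do not encode proteoglycans, belong to that group and are among the 6. With 1 array left out Dcn was at -0.31 without irradiated 5, and Lum ranged from -0.52 without control 2 to -0.083 without irradiated 5.

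**Figure D5:**
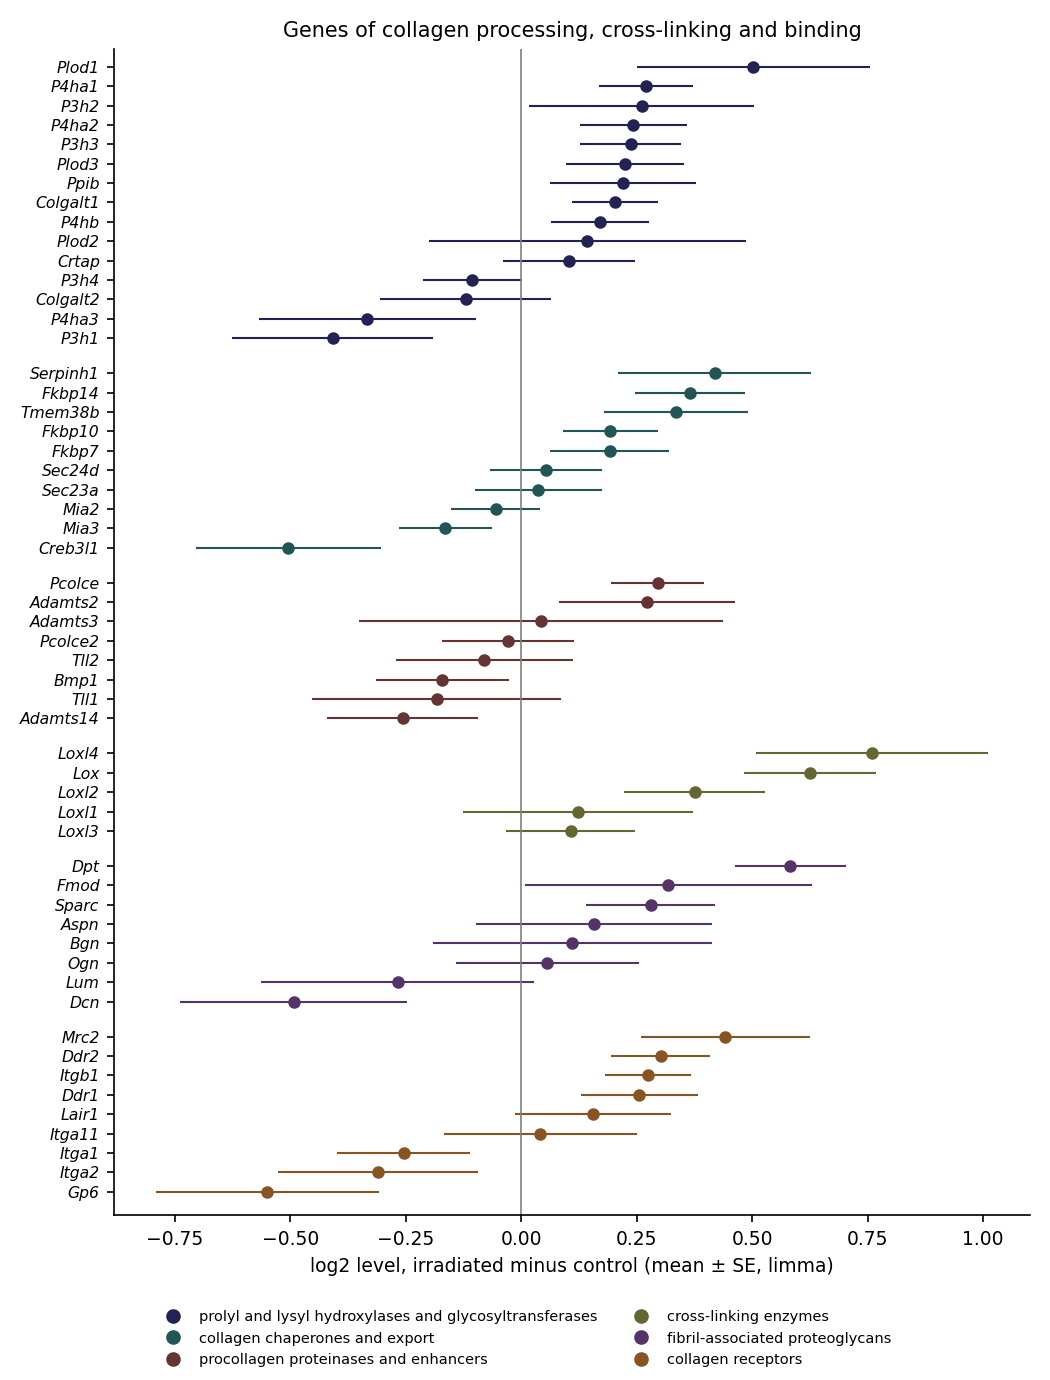
Difference in log2 normalized signal between irradiated and control arrays for 55 genes that process, cross-link or bind collagen, as the mean with its limma standard error (4 control and 5 irradiated arrays). Cross-linking enzymes reach 0.76 for Loxl4, while procollagen proteinases lie on both sides of 0.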

How the data were processed

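RNA from 4 control and 5 irradiated lung pools was hybridised to single-colour Agilent whole-genome arrays. The authors deposited scanner files with the background-corrected intensity of each spot (gProcessedSignal) and a normalized intensity table, in which 0.093% to 12.8% of values per array were empty. The labels name Cy5 as the dye, whereas the file headers give 1 channel with the prefix g. Control and outlier spots were left out, and 39302 of 39429 probes were kept, those brighter than 1.4-fold local background on 4 or more of the 9 arrays. Log2 intensities were quantile-normalized, spots of a probe averaged, and groups compared with limma 3.58.1 (R 4.3.3; lmFit, and eBayes with an intensity trend), with Benjamini-Hochberg adjustment over all probes kept and a threshold of 0.05. The script was tested on simulated data. Spots well above background made up 72.8% to 89.1% per array. The number of arrays limits the precision.

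RefSeq accessions named 26055 probes (66.1%). The brightest probe by mean log2 level stands for a gene, and 14 collagen genes had more than 1 probe. The members, classes and lists were chosen with earlier results of these data known. Genes with values by array were those whose groups did not overlap, Col1a1, Col1a2, Col3a1, Col4a1 to Col4a4, Col5a1, Col5a2, Col6a1, Col6a2 and, after their values were seen, Col8a1, Col27a1, Col4a6, Col18a1, Col2a1, Col9a2, Col10a1 and Serpinh1. Loxl1 to Loxl4, Fkbp14, P3h3, Creb3l1, P3h1, P4ha3, Gp6, Itga1, Itga2, Dcn, Lum and Sparc were also named after their values were seen. So were the markers Gli1, Vim, S100a4 and Matn4.

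Deviations from group means correlated at 0.20 to 0.46 in the 4 image pairs, against -0.24 to 0.06 for other control and irradiated arrays. The pairs therefore hold together, and values with the pair as a block are given where they change the call of a collagen or pathway gene, and as counts for markers. Alternatives covered background correction (normexp on the median spot signal, offset 50), scaling, filters, the deposited table, array weights, probe choice and each array left out.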

Additional observations from a re-analysis of the deposited data

Results flagged for a closer look

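Dixon's test marked 1 array as distant in 5 of 92 sets of control or irradiated values. Chance flags about 1 in 20 groups, or 4.6 of 92. Col4a5 was 12.73 on irradiated 1, beside 11.85 to 12.10 on the other irradiated arrays. Col6a5 was 5.86 on irradiated 5, beside 4.27 to 4.45. Col6a6 was 4.50 on irradiated 1, beside 2.07 to 2.41, and was not well above background on any irradiated array. Col25a1 was 5.10 on irradiated 3, beside 5.43 to 5.54. Col9a3 was 2.56 on control 3, beside 3.91 to 4.12 on the other controls, and was not well above background on any array.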

How the results depend on the processing

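The median difference over the 42 collagen genes (34 with the background filter on all 9 arrays) was above 0 in every alternative run. It ranged from 0.051 to 0.209. For a chosen set of single genes, 433 of 461 values kept their sign and their side of the threshold. The set was the genes whose groups did not overlap, Col1a1, Col1a2, Col3a1, Col4a1 to Col4a4, Col5a1, Col5a2, Col6a1, Col6a2, Serpinh1, Plod2, Pcolce and Ddr2. Over all 42 chains, 11 differences turned sign when 1 array was left out. The median over the other chains, 0.011, was -0.024 with 75th percentile scaling, -0.0027 and -0.00062 with the image pair as a fixed and as a random block, -0.010 with array weights, 0.168 with a background filter on all 9 arrays, and -0.039 to 0.094 with 1 array left out. Collagen genes called higher numbered 1 with array weights, 1 with the fixed and 6 with the random block, and 0 to 1 with 1 array left out, beside 0.391%, 2.28%, 5.65% and 0.0203% to 1.11% of all genes, and those called lower numbered 1 with either block, beside 1.56% and 3.8%. Pathway genes called numbered 2 with the fixed and 8 with the random block. Collagen genes with all irradiated arrays above all controls numbered 1 with 75th percentile scaling, 0 in the deposited table and 3 to 5 with 1 array left out, beside 2.51%, 0.83% and 3.68% to 5.46% of all genes. Those with all arrays below numbered 2 without irradiated 1 and control 3 together, and 0 to 1 with 1 array left out, beside 5.47% and 2.25% to 3.73% of all genes. With 1 array left out, called probes ranged from 5 to 483, beside 131. They numbered 197 with the filter on all 9 arrays, 45 in the deposited table, 44 without the intensity trend, 5 at a threshold of 0.01, 1105 with the fixed and 2898 with the random block. The replicate number of the titles as a block left 1 called probe and 0 collagen genes, and Col6a2 at 0.034. Samples with the same number correlated at -0.17 to 0.06, so the numbers do not pair them. Col6a1 ranged from -0.14 to 0.013, Col6a2 from -0.20 to 0.13, Col4a4 from -0.064 to 0.20 and Plod2 from -0.061 to 0.34 with 1 array left out. Without irradiated 1 and control 3 Col4a4 was at -0.068 and Plod2 at -0.26, and with the fixed block Plod2 was at -0.055. The cause was not tested. Signals close to background limit Col24a1, Col6a5 and Col22a1.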
